A study of Mus musculus with 4 samples.

Results

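The solute carriers are the membrane proteins that move sugars, amino acids, ions, metals, vitamins and other small molecules across cell and organelle membranes, and their mouse gene symbols start with Slc. Genes were chosen by symbol (Slc followed by a digit or the letter o, leaving out Slc40a1 and Slc9a3r2) and by a minimum of 200 unique molecular identifiers (UMIs, 1 per captured RNA molecule) summed over all kept cells. Of 388 gene rows with such a symbol, 189 passed. Another 140 had 1 to 199 UMIs and 59 had none. The cells came from brains of C57BL6 mice, dissociated and sorted by flow cytometry for the endothelial surface protein CD31. Meninges, cerebellum and olfactory bulbs had been removed. Mice ate a control diet (2 libraries) or a diet with 1200 ppm PLX5622, an inhibitor of the CSF1 receptor that depletes microglia, the brain's resident macrophages (2 libraries), for 1 month. The study asked what loss of microglia does to brain vessels. Each diet used 3 mice over its 2 libraries. Libraries are thus not known to be single animals, and p-values here measure the spread among libraries.

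Brain endothelial cells are joined by tight junctions that close the space between them, so nutrients enter the brain mainly through carriers in the endothelial membranes. Known examples are Slc2a1 (GLUT1) for glucose, Slc7a5 with its partner Slc3a2 for large neutral amino acids, and Slc16a1 (MCT1) for lactate and ketone bodies. Pericytes and smooth muscle cells, together called mural cells, wrap the capillaries and arteries and carry their own transporters. Arteries, capillaries and veins of the brain also differ in their transporter genes.

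Within the 14864 kept cells (1696 and 5509 from control libraries 1 and 2, 3989 and 3670 from PLX5622 libraries 1 and 2), median depth was 3834 to 5922 UMIs per cell. The solute carriers held 1395877 of 88423848 UMIs, or 1.58%. Cells were clustered without any Slc gene and named from marker genes. Endothelial-like cells numbered 1524, 4935, 3586 and 3212 in the order of the libraries above, smooth muscle-like cells 36, 69, 61 and 60, and pericyte-like cells 28, 101, 85 and 77. The summed level of 10 endothelial markers was 22130 to 22540 CPM in endothelial-like cells. CPM is a gene's UMIs scaled to 1000000 UMIs, here of the summed cells of a class in a library, and all levels below are in it. Because the 3′ libraries give 1 UMI per molecule, whatever the transcript's length, CPM was also used to set genes side by side. Mean ± SD always refers to the 4 libraries, and values per library are given as control 1, control 2, PLX5622 1 and PLX5622 2. No more than 6 cell barcodes were shared by any pair of libraries. The free RNA in droplets amounted to at most 0.433% of an endothelial sum.

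The 3 members just above the minimum were Slc18a2 (221 UMIs), Slc7a10 (220) and Slc22a18 (214). The 3 genes just below it were Slc1a4 (197), Slc25a18 (174) and Slc39a12 (172). Slc7a10, a transporter for small neutral amino acids, was almost absent from endothelial-like cells (at most 0.0654 CPM) and entered through astrocyte-like cells. The minimum counted all kept cells, so other members low in endothelial-like cells also reached it mainly through other classes. Among those named below are Slc4a3 (328 UMIs), Slc8a1 (309), Slc6a17 (290), Slc30a10 (279), Slc7a2 (241) and Slc6a13 (223). Members matched by symbol also include Slc9a3r1, a scaffold protein, and Slc4a1ap and Slc7a6os, which are not transporters. All 3 are counted in the class of their symbol, Slc9a3r1 and Slc4a1ap with the ion carriers and Slc7a6os with the amino acid carriers.

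In endothelial-like cells the members together made up 1.66% ± 0.0738 of all UMIs (1.60% to 1.76%), and a few genes carried most of it. The 10 highest members held 63.3% of the members' summed CPM. The median member was at 16.1 CPM, 76 of 189 members reached 20 CPM, and 26 reached 100 CPM. Amino acid and peptide transporters took the largest share (35 members, 0.533% ± 0.0251 of endothelial UMIs), followed by carriers of organic anions and cations (16 members, 0.381% ± 0.0263). Sugar transporters (8 members) took 0.194% ± 0.00593, metal and heme transporters (22 members) 0.181% ± 0.0116, and mitochondrial carriers (36 members) 0.152% ± 0.00289. Monocarboxylate and thyroid hormone carriers (8 members) took 0.0925% ± 0.00266. The rest were carriers of nucleotide sugars (21 members, 0.0452%), of vitamins, nucleosides and choline (13 members, 0.0419%) and of inorganic ions and acid equivalents (24 members, 0.0379%). The 3 fatty acid transporters (0.00236%) and the 3 members in no other class (0.00259%) took the least.

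**Figure D1:**
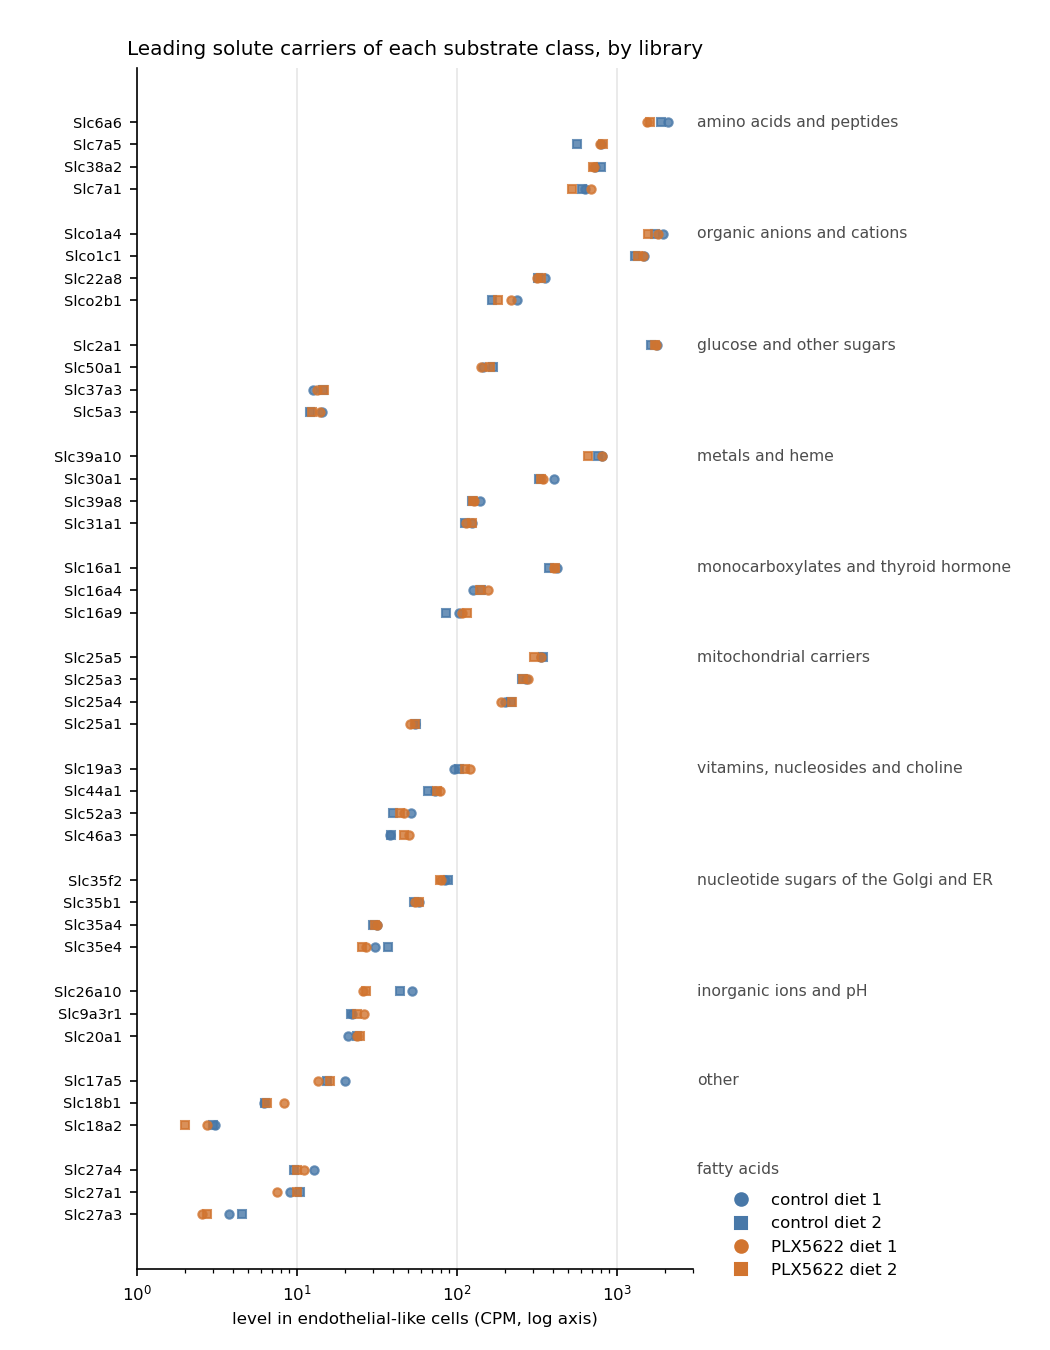
Level in endothelial-like cells (CPM, log axis) of 3 or 4 leading members of each substrate class, with 1 point per library (blue control diet, orange PLX5622 diet). Slc6a6, Slco1a4, Slc2a1 and Slco1c1 are the rightmost rows, and no fatty acid transporter had a mean of 20 CPM.

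Among amino acid transporters, Slc6a6, which imports taurine, was the highest at 2102, 1880, 1537 and 1626 CPM. Both PLX5622 libraries lay below both control libraries. Slc7a5, the light chain of the large neutral amino acid exchanger, was at 802.7, 569.3, 781.7 and 818.6 CPM, and Slc3a2, its heavy chain, at 525.2, 575.3, 625.1 and 576.4 CPM. The diets overlapped for Slc7a5, and for Slc3a2 both PLX5622 libraries lay narrowly above both controls. Slc38a2, a sodium-coupled transporter of small neutral amino acids, was at 743 ± 40.4 CPM, and Slc7a1, the carrier of arginine and lysine, at 613 ± 69.1 CPM. Slc38a3, a glutamine transporter, followed at 283 ± 21.7 CPM.

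The organic anion carriers were led by Slco1a4 at 1938, 1740, 1814 and 1575 CPM and by Slco1c1, which carries thyroxine, at 1476, 1308, 1456 and 1353 CPM. Slc22a8 (OAT3), an exporter of organic anions from brain to blood, was at 334.6 ± 17.4 CPM and Slco2b1 at 201 ± 33.95 CPM. Slco1c1 and Slco1a4 lie on chromosome 6 with Slco1b2 between them, at gaps of 59341 and 118794 bases (GENCODE M21, GRCm38). The gene in the middle was at 2.89 CPM. Slc22a8 and Slc3a2 are likewise neighbours, 95047 bases apart on chromosome 19.

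Slc2a1, the glucose transporter of the barrier, was at 1787, 1634, 1769 and 1733 CPM (SD 68.5), and the diets overlapped. Slc50a1, another sugar transporter, was at 155 ± 13.1 CPM, and Slc37a3 and Slc5a3, the myo-inositol transporter, at 13.9 and 13.3 CPM. Among metal carriers the zinc importer Slc39a10 led at 761 ± 69.9 CPM, above the zinc exporter Slc30a1 at 354 CPM, the zinc and manganese importer Slc39a8 at 130 ± 7.35 CPM and the copper importer Slc31a1 at 119 ± 6.89 CPM. The monocarboxylate family was led by Slc16a1 at 404 ± 19.2 CPM, and Slc16a4 was at 141 ± 12.5 and Slc16a9 at 104 ± 12.7 CPM.

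Among mitochondrial carriers, Slc25a5 and Slc25a4, which exchange ADP for ATP, were at 331.5 ± 19.95 and 207 ± 16.3 CPM, the phosphate carrier Slc25a3 at 267 ± 10.6 CPM, and the citrate carrier Slc25a1 at 54.3 CPM. Of the vitamin group, the thiamine transporter Slc19a3 was at 109 ± 10.8 CPM, the choline transporter Slc44a1 at 73.4 CPM, the riboflavin transporter Slc52a3 at 45.8 CPM and Slc46a3 at 43.8 CPM. In the Slc35 family, named for nucleotide sugar transport, Slc35f2 (82.6 CPM), Slc35b1 (56.4), Slc35a4 (31.1) and Slc35e4 (30.1) were highest. In the ion carrier class Slc26a10, of the Slc26 anion exchanger family, was at 37.6 CPM, the scaffold protein Slc9a3r1 at 23.6 and the phosphate transporter Slc20a1 at 23.4 CPM. The fatty acid transporters Slc27a4, Slc27a1 and Slc27a3 were at 10.9, 9.30 and 3.42 CPM. Slc17a5, Slc18b1 and Slc18a2, the members in no other class, were at 16.3, 6.85 and 2.72 CPM.

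Endothelial-like cells fell into arterial-like (172, 652, 350 and 406 cells), capillary-like (1204, 3786, 3014 and 2502) and venous-like cells (142, 484, 222 and 304). A fenestrated-like group of 6, 13, 0 and 0 cells was in no zone and stayed in the endothelial-like sums. Capillary-like clusters were further read as arterial-side or venous-side from their markers. These zones come from the same cells as the levels, so zone against zone is given as a description with no test. A member was called higher or lower in a zone when it differed at least 1.5-fold, the same way, in each of 4 libraries and had at least 20 CPM. Of 90 members at that level, 14 were lower in arterial-like cells than in the other zones (15.6%, against 2.64% of all genes) and 4 were higher (4.44%, against 3.88% of all genes). The median log2 ratio of the members was −0.03, beside −0.02 over all genes. The 14 were 6 amino acid, 2 metal, 2 monocarboxylate and 2 organic anion carriers, with 1 nucleotide sugar family member and 1 nucleoside carrier. Set against venous-like cells alone, arterial-like cells had 13 of 89 members lower (14.6%, against 3.52% of all genes) and 4 higher (4.49%, against 4.51%). Of the 20 mitochondrial carriers at the level, 0 were called in either direction.

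Slc38a5, a glutamine transporter, showed the widest difference between zones. Its level was 1.78, 12.1, 5.27 and 4.81 CPM in arterial-like cells, and 47.1, 56.9, 38.5 and 26.9 CPM in arterial-side capillary-like cells. In venous-side capillary-like cells it was 163, 152.9, 125.2 and 83.4 CPM, and in venous-like cells 272.8, 264.5, 377.3 and 266.2 CPM. The level was higher at each step of this order in each library, and no neighbouring pair of zones overlapped. Slc38a5 was the 1 member of 90 with such an order (1.11%, against 1.39% of all genes), and 0 members fell at each step (1.5% of all genes). Its log2 ratio of arterial-like to the other zones was −4.99 ± 0.94, and of venous-like to the others 2.60 ± 0.37.

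Slc16a1 was at 172, 107.2, 88.4 and 119 CPM in arterial-like cells and at 242.4, 215.6, 201.3 and 250.2 CPM in arterial-side capillary-like cells. It reached 654, 606.4, 580.6 and 553 CPM in venous-side capillary-like cells and 514, 475.6, 442.2 and 529.5 CPM in venous-like cells. It was thus highest in venous-side capillary-like cells, and lowest in arterial-like cells, in every library. Slc7a5 had the same order of means, 312, 647, 936 and 709 CPM from arterial-like over arterial-side and venous-side to venous-like, as had Slc22a8 at 165, 241, 429 and 405 CPM. Other members lower in arterial-like cells were Slc39a8 (log2 ratio −1.51), Slc16a9 (−1.31), Slc38a3 (−1.22), Slc7a1 (−1.15), Slco2b1 (−0.99), the nucleoside transporter Slc29a1 (−0.97), Slc1a1 (−0.90), Slc35f2 (−0.84), Slc31a1 (−0.78) and Slc3a2 (−0.64).

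The 4 members higher in arterial-like cells were Slc26a10 (log2 ratio 1.77 ± 0.25), the potassium-chloride cotransporter Slc12a4 (0.81), the heme transporter Slc48a1 (0.79) and Slc9a3r1 (0.70). Slc26a10 was at 89.1, 88.6, 60.3 and 59.9 CPM in arterial-like cells and at 105.5, 83.1, 54.5 and 66.7 CPM in arterial-side capillary-like cells. On the venous side it was at 13.8, 6.96, 8.25 and 6.16 CPM in capillary-like and 10.0, 7.63, 4.595 and 4.80 CPM in venous-like cells. The arterial-side values lay above the venous-side values in every library. Slc35e4 (0.71), Slc36a1 (0.61), Slc25a33 (0.59) and Slc25a24 (0.56) were next in arterial-like cells and were not called.

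In capillary-like cells 1 member was called higher (1.11%, against 0.239% of all genes), the glutamate and cysteine transporter Slc1a1, with a log2 ratio of 0.80 ± 0.18, and 2 were lower (2.22%, against 2.11%), the potassium-chloride cotransporters Slc12a4 (−0.77) and Slc12a7 (−1.16). Without control library 2, or without PLX5622 library 2, 2 members were called higher. In venous-like cells 4 members were called higher (against 2.02% of all genes), Slc38a5, Slc52a3 (0.86), Slc16a1 (0.80) and Slc39a8 (0.76), and 1 was lower (against 2.93%), Slc26a10 at −2.89 ± 0.11. Leaving out control library 1 or control library 2 gave 2 lower. With a library left out, fewer libraries had to agree for every gene. Shares of all genes at these settings, in capillary-like or venous-like cells, are not given here. Slc52a3 was at 94.0, 63.9, 72.9 and 71.3 CPM in venous-like cells, above its means in arterial-like (41.2), arterial-side (31.7) and venous-side capillary-like cells (47.9).

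Between the capillary sides, of 77 members at the level, 2 were higher on the arterial side (against 1.42% of all genes), Slc26a10 (3.02 ± 0.37) and Slc6a6 (0.85 ± 0.09), and 4 were lower (against 0.819%), Slc38a5 (−1.61), Slc16a1 (−1.40), Slc16a9 (−0.86) and Slc22a8 (−0.83). Slc6a6 was at 2556, 2207, 1865 and 2016 CPM on the arterial side and at 1359, 1181, 1127 and 1107 CPM on the venous side, with no overlap. Slc2a1 was called in no zone, and went from 2293, 2142, 2280 and 2063 CPM in arterial-like cells to 1527, 1445, 1731 and 1633 CPM in venous-like cells. It was lower in venous-like than in arterial-like cells in every library. The zone means of Slco1a4 (1492 to 1876 CPM) and Slco1c1 (1151 to 1516 CPM) stayed within 1.5-fold.

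**Figure D2:**
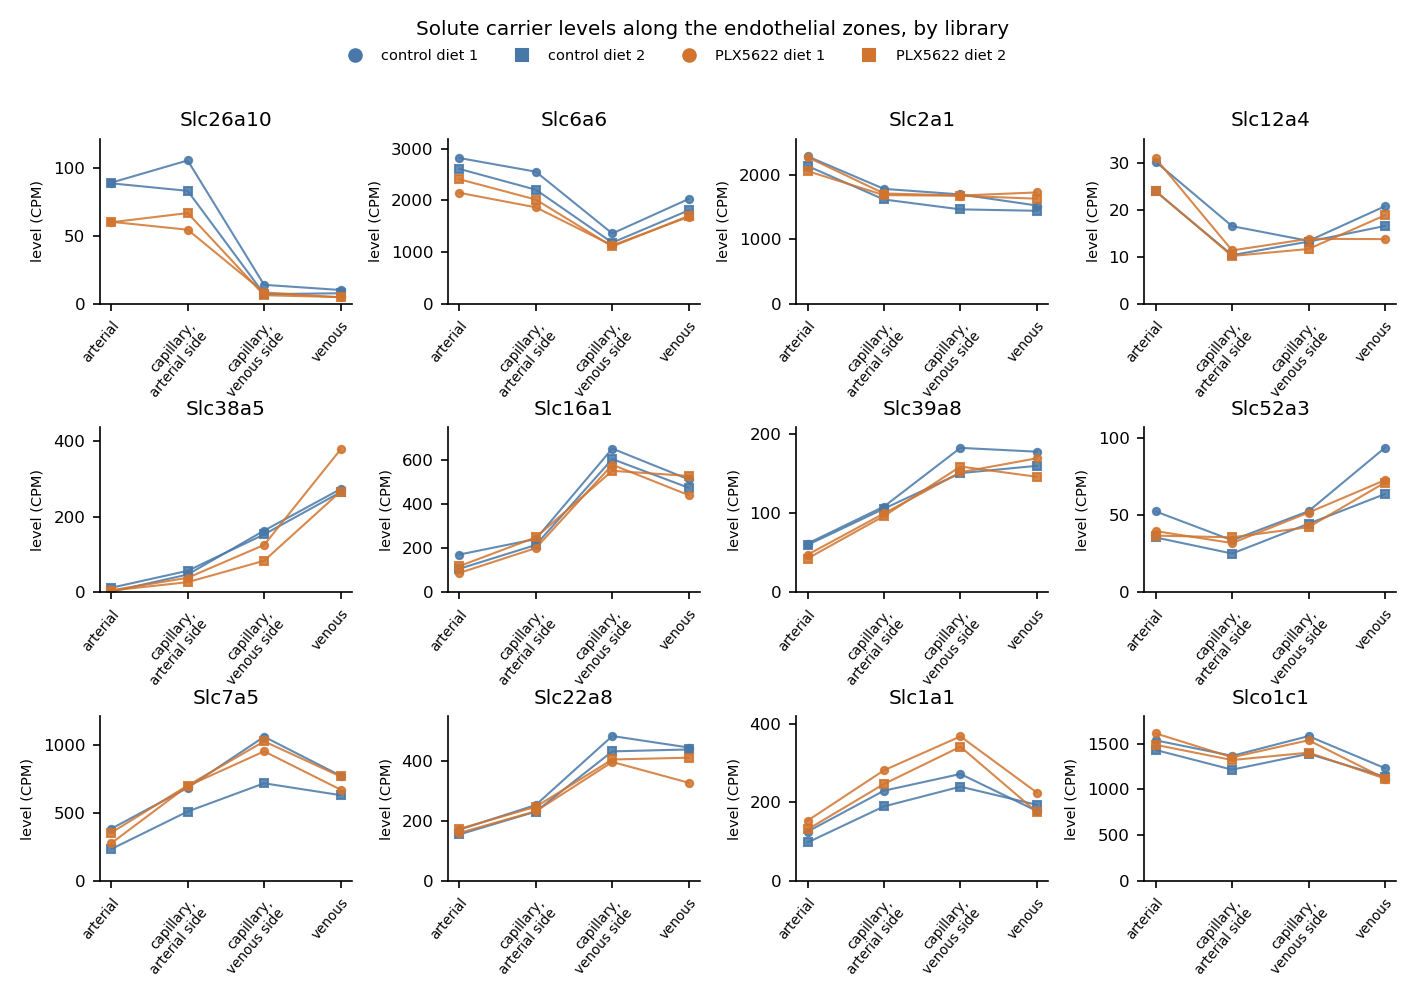
Level (CPM, axes from 0) of 12 members in arterial-like, arterial-side capillary-like, venous-side capillary-like and venous-like cells, with 1 line per library (blue control diet, orange PLX5622 diet). Slc38a5 is higher at each step, Slc16a1 peaks in venous-side capillary-like cells, and Slc26a10 is high on the arterial side only.

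Mural cells of the sort carried a different set. In smooth muscle-like cells the members held 0.699% ± 0.0335 of UMIs, less than in endothelial-like cells in every library (at most 0.747% against at least 1.60%). Organic anion carriers made up 0.0358% of smooth muscle-like UMIs against 0.381% in endothelial-like cells, and mitochondrial carriers 0.250% against 0.152%. With the rule of 1.5-fold in each of 4 libraries, 36 of 101 members were lower (35.6%, against 18.9% of all genes) and 25 higher (24.8%, against 16.6%) in smooth muscle-like cells. The endothelial markers were at 950.2 to 3214 CPM there. In smooth muscle-like cells of control library 2, erythroid markers summed to 6262 CPM.

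The members higher in smooth muscle-like cells included 6 ion carriers, 7 amino acid carriers and 5 mitochondrial carriers. In the same classes 2 ion carriers, 8 amino acid carriers and 4 mitochondrial carriers were lower. The median log2 ratio was 1.14 for ion, −0.49 for amino acid and 0.04 for mitochondrial carriers. Slc4a3, a chloride-bicarbonate exchanger, was at 188.3, 100.9, 139 and 115.6 CPM and Slc8a1, the sodium-calcium exchanger, at 150, 130.1, 119.8 and 91.1 CPM, against means of 0.436 and 0.409 CPM in endothelial-like cells. In pericyte-like cells Slc4a3 gave 0, 1.42, 0 and 0 CPM and Slc8a1 a mean of 5.19 CPM. Slc6a17, a neutral amino acid transporter, was at 82.6 ± 6.46 CPM in smooth muscle-like, 17.8 in pericyte-like and 0.819 in endothelial-like cells. Slc25a4 was at 926.7, 768.2, 886.6 and 957.8 CPM, against 207 CPM in endothelial-like cells. Slc2a1 was at 126 CPM, Slc16a1 at 7.77 and Slco1a4 at 68.1 CPM in smooth muscle-like cells.

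Pericyte-like droplets mostly held endothelial RNA as well: their endothelial markers summed to 13950 to 15690 CPM, and in PLX5622 library 2 their erythroid markers to 15430 CPM. In all pericyte-like cells 1 of 98 members was called lower than in endothelial-like cells (1.02%, against 0.471% of all genes), Slc1a1 at −0.82, and 11 were called higher (11.2%, against 7.2%). With a library left out, shares of all genes are not given here. The count of lower members was 2 without control library 1 and 3 without control library 2 or without PLX5622 library 1. Values were therefore also taken from the 8, 32, 39 and 27 pericyte-like cells whose endothelial marker share was under 25% of the endothelial median. There, of 109 members, 21 were higher (against 12.5% of all genes) and 27 lower (against 12.7%). The choice of droplets itself lowers endothelial genes.

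Slc6a20a, a transporter of proline and other imino acids, had the highest ratio of pericyte-like to endothelial-like cells (log2 7.11). It was at 262, 246.3, 343.3 and 211.3 CPM in all pericyte-like cells and 734.5, 939.3, 841.3 and 531.9 CPM in those with little endothelial RNA. Smooth muscle-like cells had 53.0, 42.5, 38.3 and 50.8 CPM and endothelial-like cells 0.346, 1.47, 1.11 and 0.843 CPM. The ranges of pericyte-like, smooth muscle-like and endothelial-like cells did not overlap.

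Slc19a1, the reduced folate carrier, was at 524.7, 748.1, 642.1 and 531.9 CPM in pericyte-like cells with little endothelial RNA, 141.2, 151.9, 189.3 and 203.1 CPM in smooth muscle-like cells, and at most 1.22 CPM in endothelial-like cells. Slco3a1, an organic anion transporter, was at 443 ± 60.2 CPM in the same pericyte-like cells and 0.653 CPM in endothelial-like cells, and Slc38a11, of the amino acid transporter family Slc38, at 334 and 0.399 CPM. The manganese exporter Slc30a10 (265 against 0.225 CPM), the arginine carrier Slc7a2 (139 against 0.134), the GABA and taurine transporter Slc6a13 (93.2 against 0.124) and Slc16a12, which carries creatine (232 against 2.00), followed the same pattern. Some of these members were also high in another class, the 17 fibroblast-like cells of the sort, pooled over libraries. These held 132 UMIs of Slc6a13 (1139 CPM) and 112 of Slc6a20a (967 CPM), both above each library of the pericyte-like cells. Slc16a12 (20 UMIs, 173 CPM), Slc7a2 (17 UMIs, 147 CPM) and Slc30a10 (14 UMIs, 121 CPM) were also found there. Slc19a1 was at 60.4, Slc12a2 at 25.9, Slco3a1 at 17.3 and Slc38a11 at 0 CPM. The 5 fibroblast markers summed to 314.8, 307.6, 343.2 and 883.5 CPM in the pericyte-like cells with little endothelial RNA and to at most 0.692 CPM in endothelial-like cells, and their part in these levels was not tested. Slc12a2 (NKCC1), the sodium-potassium-chloride cotransporter, was at 581 CPM against 20.7 CPM in endothelial-like cells and 81.1 CPM in smooth muscle-like cells.

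The carriers of the endothelial barrier were near the floor in the pericyte-like cells with little endothelial RNA. Of 350152 pooled UMIs, 16 were Slc2a1 (37.3-fold under the endothelial level), 12 Slco1a4 (50.5-fold), 10 Slc6a6 (61.9-fold) and 4 Slc7a5 (61.8-fold). Slc22a8 went against this. It was at 490, 390.7, 232.5 and 369.6 CPM in these cells and at 358.6, 324.4, 319.4 and 335.8 CPM in endothelial-like cells, while smooth muscle-like cells held 2.94, 41.3, 2.40 and 7.004 CPM. The pericyte-like and endothelial-like ranges of Slc22a8 overlapped. In the 17 pooled fibroblast-like cells it was at 259 CPM. Slc22a8 in pericyte-like cells was singled out after its values were seen.

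**Figure D3:**
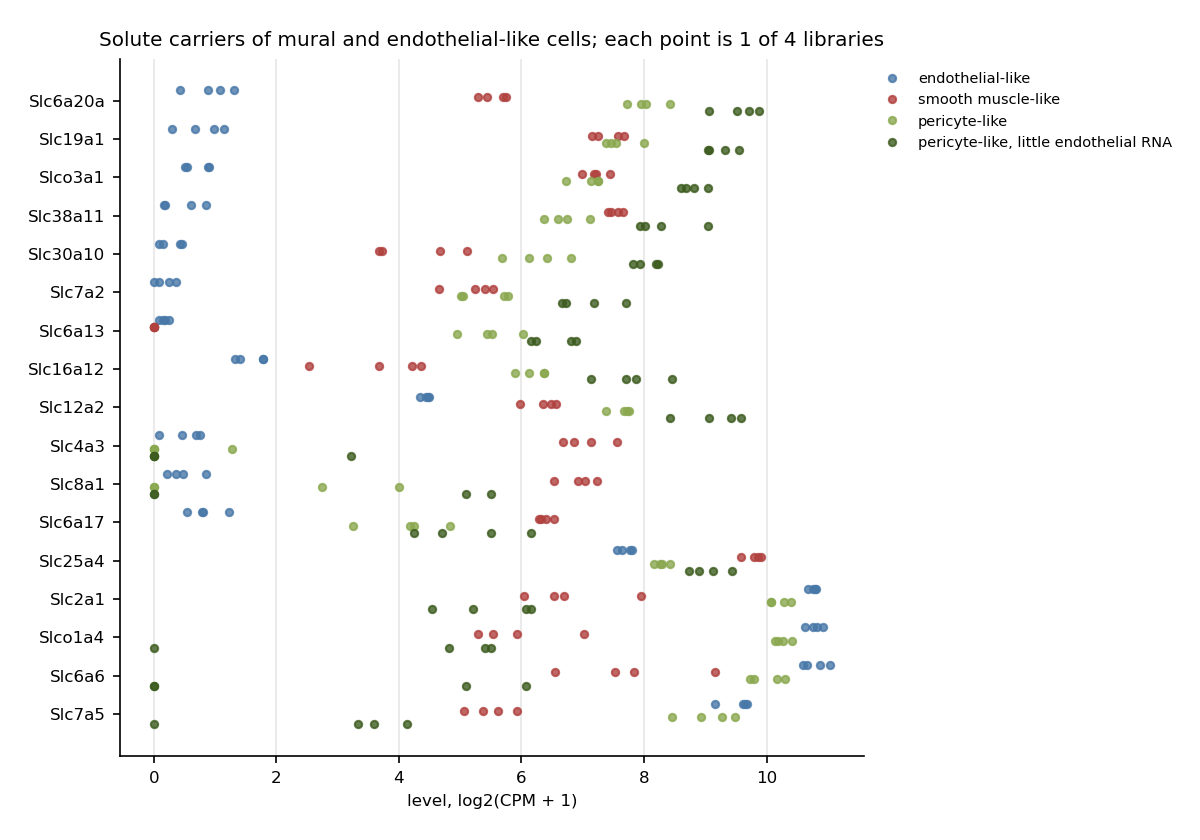
Level, as log2(CPM + 1), of 17 members in endothelial-like, smooth muscle-like and pericyte-like cells and in the pericyte-like cells with little endothelial RNA, with 1 point per library. Slc4a3 and Slc8a1 are highest in smooth muscle-like cells and Slc6a20a and Slc30a10 in pericyte-like cells of the classes plotted, while Slc2a1, Slco1a4, Slc6a6 and Slc7a5 are highest in endothelial-like cells.

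The design's main comparison, PLX5622 against control diet, was tested per cell class with edgeR's quasi-likelihood test on summed UMIs, with Benjamini-Hochberg adjustment over all genes tested. In endothelial-like cells 181 members had enough counts, and 173 of them differed by less than 1.5-fold (95.6%, beside 94.9% of all genes). The median log2 fold change was −0.02 over members and 0.00 over all genes. Slc26a10 fell, and Slc1a1 and Slc16a6 rose, so 3 members passed an adjusted p of 0.05, against 1.45% of all genes (0.969% higher, 0.484% lower). At an unadjusted p under 0.05 there were 19 members, against 10.6% of all genes. The number passing moved with a library left out. Such fits leave 1 library in a diet, and shares of all genes at those settings are not given here.

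Slc26a10 was at 52.9, 44.2, 26.1 and 27.3 CPM in endothelial-like cells, with both PLX5622 libraries below both controls. Its log2 fold change was −0.80 ± 0.10 (SE), adjusted p = 9.82e-05 by edgeR. Slc1a1 was at 225.9, 197.3, 305.4 and 266.6 CPM, with both PLX5622 libraries above both controls, and rose by 0.49 ± 0.11, adjusted p = 0.0213. Without PLX5622 library 1 its change was 0.38 and it no longer passed. Slc16a6, a member of the monocarboxylate transporter family at low level, was at 3.46, 2.57, 4.78 and 6.23 CPM and rose by 1.00 ± 0.23, adjusted p = 0.0334. Without control library 2, or without PLX5622 library 2, its change was 0.78 and it no longer passed. Slc26a10 lies at chr10:127171393-127180645 on the minus strand, Slc1a1 at chr19:28835049-28913960 on the plus strand and Slc16a6 at chr11:109450855-109473598 on the minus strand (GENCODE M21, GRCm38).

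The next members by p did not pass. They were the prostaglandin transporter Slco2a1 (6.69, 6.01, 3.79 and 3.32 CPM; −0.79 ± 0.20, adjusted p = 0.0624), the lysosomal protein Slc46a3 (38.5, 39.2, 50.4 and 47.1 CPM; 0.36 ± 0.09, adjusted p = 0.0643) and the lysosomal histidine and peptide transporter Slc15a4 (0.48 ± 0.14, adjusted p = 0.129). For these the diets did not overlap. The high barrier carriers did not pass. Their log2 fold changes were 0.08 ± 0.14 for Slc2a1 (adjusted p = 0.893), −0.07 ± 0.14 for Slco1a4 (0.916), 0.06 for Slco1c1 (0.920), 0.08 for Slc16a1 (0.860), 0.17 for Slc3a2 (0.686) and −0.05 for Slc39a10 (0.929). Slc6a6 (−0.28 ± 0.14, 0.484), Slc7a5 (0.28 ± 0.14, 0.491) and the thiamine transporter Slc19a3 (0.26 ± 0.10, 0.279) differed more and did not pass either. Slc19a1, a carrier of mural cells, gave 1.17 ± 0.48 (adjusted p = 0.354) at 0.231, 0.595, 0.981 and 1.22 CPM, while pericyte markers summed to 227.7, 227.6, 328.6 and 281.7 CPM in endothelial-like cells, and their part in this value was not tested. By class, members above 0 numbered 12 of 29 tested amino acid carriers, 18 of 36 mitochondrial carriers and 11 of 21 nucleotide sugar carriers. They were 9 of 21 metal carriers and 6 of 16 organic anion carriers, and other classes are not listed. Over all 181 tested members 82 were above 0. The share of all genes above 0 is not given here, so these counts are no result about a class.

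**Figure D4:**
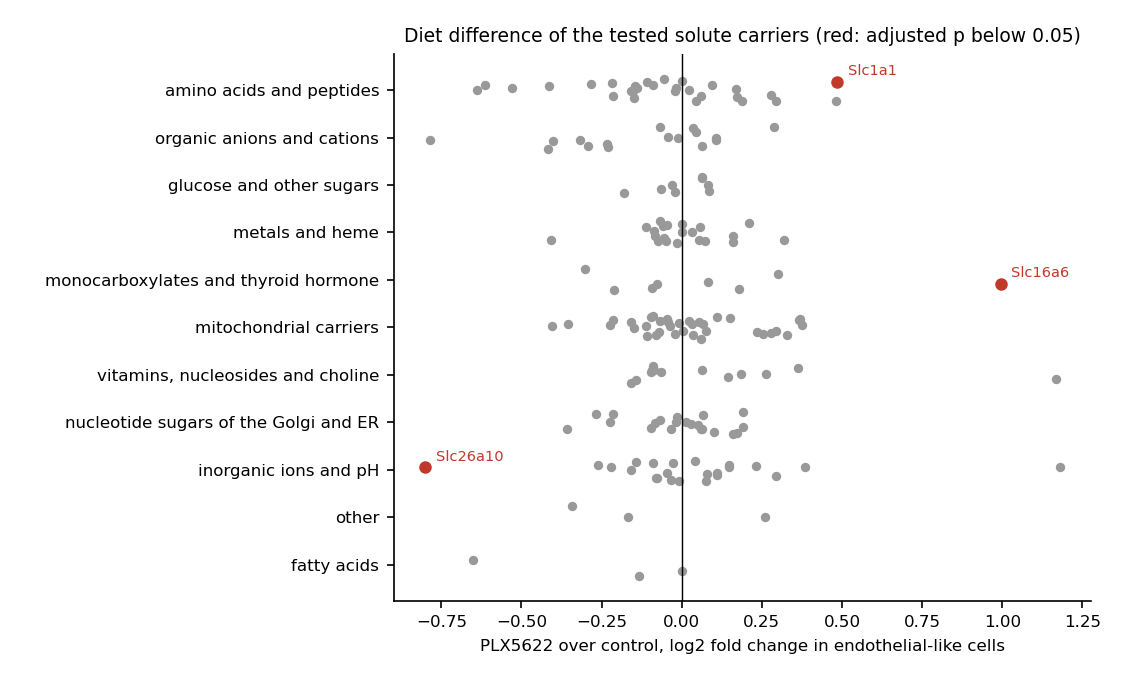
Log2 fold change of PLX5622 over control diet in endothelial-like cells of the 181 tested members, with 1 point per member and 1 row per substrate class. The 3 members with an adjusted p under 0.05 are in red, and most others lie near 0.

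Upstream sequence is shown for Slc26a10 and Slc1a1, which passed the diet test, and for Slc25a1, described below for its zone difference. It is not shown for Slc38a5 and Slco2a1, whose windows lie almost wholly within annotated exons, or for Slc16a6. The windows are 250 bases before the start of the RefSeq transcript (GRCm38.p6), printed up to the first base of an annotated GENCODE exon. They were searched on both strands for the TATA box TATAAA, the CAAT box CCAAT, the GC box GGGCGG, the E-box CACGTG and the sterol element TCACNCCAC, and matches are in capitals. Slc26a10 is chr10:127180646-127180832 on the minus strand, Slc1a1 is chr19:28834885-28835048 on the plus strand, and Slc25a1 is chr16:17928220-17928469 on the minus strand.
Slc26a10: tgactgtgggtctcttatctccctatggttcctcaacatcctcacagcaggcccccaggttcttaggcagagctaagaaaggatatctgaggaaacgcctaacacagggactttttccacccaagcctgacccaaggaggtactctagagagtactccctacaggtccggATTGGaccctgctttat
Slc1a1: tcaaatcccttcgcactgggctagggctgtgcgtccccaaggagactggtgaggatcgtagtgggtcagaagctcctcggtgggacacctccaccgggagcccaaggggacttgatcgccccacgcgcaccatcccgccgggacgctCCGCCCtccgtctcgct
Slc25a1: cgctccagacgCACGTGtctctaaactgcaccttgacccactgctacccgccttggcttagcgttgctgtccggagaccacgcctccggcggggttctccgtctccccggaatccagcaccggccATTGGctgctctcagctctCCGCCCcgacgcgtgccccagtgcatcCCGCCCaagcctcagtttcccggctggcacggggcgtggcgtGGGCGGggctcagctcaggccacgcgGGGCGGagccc
The Slc26a10 window holds 1 CCAAT match and 3 CpG over the 250 bases (71.0% of all promoters have as many), Slc1a1 1 GC box and 27 CpG (8.56%), and Slc25a1 1 CCAAT match, 4 GC boxes, 1 E-box and 25 CpG (10.7%). Of the 189 members, 148 had a promoter entry, 200 windows in all. Over these windows, against 32851 of all genes, the GC box was found in 61.0% against 32.7%, CCAAT in 30% against 33.8%, TATAAA in 6.5% against 12.4%, the E-box in 11.5% against 6.02% and the sterol element in 1.5% against 1.05%. The median CpG count was 13 in the member windows and 6 over all windows. Members were chosen for a minimum of UMIs and the windows of all genes were not, so the sets differ in more than gene family. These counts describe letters in the windows only.

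Within the zones, capillary-like cells called 4 members of 178 (against 1.42% of all genes), and 25 had an unadjusted p under 0.05, against 10.4% of all genes. The count of 4 moved with a library left out. Slc26a10 was at 55.3, 43.4, 24.3 and 25.2 CPM (−0.92 ± 0.11, adjusted p = 2.23e-05) and Slco2a1 at 6.58, 6.15, 3.63 and 2.78 CPM (−0.95 ± 0.24, adjusted p = 0.0394). Slc1a1 was at 254.7, 220.8, 339.3 and 313.4 CPM (0.51 ± 0.11, adjusted p = 0.0142) and Slc16a6 at 3.69, 2.85, 5.66 and 7.41 CPM (1.12 ± 0.24, adjusted p = 0.0138). For all 4 the diets did not overlap. DESeq2 called 2 of the 4, and not Slc16a6 (1.09, adjusted p = 0.187) or Slco2a1 (−0.95, adjusted p = 0.396). The share of all genes called by DESeq2 is not given here or for the DESeq2 counts below. Without the cluster led by Angpt2 described next, 1 member passed, Slc26a10, and Slc16a6 gave 0.48, Slc1a1 0.39 and Slco2a1 −0.67. Slc16a6 and Slco2a1 no longer passed without control library 2 (0.93 and −0.95) or without PLX5622 library 2 (0.89 and −0.76), and Slc1a1 no longer passed without PLX5622 library 1 (0.45) or 2 (0.56).

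The makeup of the capillary-like cells moved with diet. Arterial-side cells were 41.5%, 42.6%, 31.7% and 30.4% and venous-side cells 46.9%, 49.6%, 63.6% and 63.8% of them, and 1 venous-side cluster led by Angpt2, a secreted regulator of vessel growth, was 6.98%, 4.7%, 14.2% and 24.8%. Within the arterial side alone (0.682% of all genes called), Slc26a10 fell by 0.56 ± 0.13 (adjusted p = 0.0324) and Slc38a5 fell by 0.68 ± 0.16 (adjusted p = 0.0314), while Slc1a1 gave 0.39 (adjusted p = 0.218) and Slco2a1 −0.54 (adjusted p = 0.637). Within the venous side alone (1.5% of all genes called), Slc1a1 rose by 0.51 ± 0.11 (adjusted p = 0.0102), while Slc26a10 (−0.31 ± 0.27, adjusted p = 0.836), Slc16a6 (0.94, 0.0555) and Slc38a5 (−0.58, 0.0715) did not pass. With each capillary-like cluster given equal weight, 0 members passed, Slc26a10 giving −0.42 (adjusted p = 0.207) and Slc1a1 0.39 (adjusted p = 0.158).

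Over 13 endothelial clusters, Slc26a10 was lower in both PLX5622 libraries than in both controls in 8, higher in 1 and overlapping in 4. Slc1a1 was higher in both PLX5622 libraries in 9 clusters and overlapped in 4. Slc6a6 was lower in 9 clusters and overlapped in 4, and it passed no test. Slc16a6 was higher in 1 cluster and overlapped in 12. Slco2a1 was lower in 4, higher in 1 and overlapping in 8, Slc38a5 lower in 7, higher in 1 and overlapping in 5, and Slc25a1 lower in 2, higher in 1 and overlapping in 10. These splits by cluster were chosen after the values were seen. The clusters come from the same 4 libraries and are not replicates. The share of all genes with such orders is not given here, so the counts are no test of a diet difference.

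Arterial-like cells called 0 of 162 members by edgeR (against 0.268% of all genes), with 18 at an unadjusted p under 0.05 (against 6.89%) and 0 by DESeq2. Slc26a10 was nearest there (−0.55 ± 0.15, adjusted p = 0.119), then Slco2a1 (−1.39 ± 0.46, 0.351) and Slc1a1 (0.40 ± 0.13, 0.375). The edgeR count was not the same with control library 1 or control library 2 left out. Venous-like cells called 0 of 159 (against 1.26%), with 11 at an unadjusted p under 0.05 (against 9.59%) and 0 by DESeq2. Their edgeR count moved without control library 1, control library 2 or PLX5622 library 2. Smooth muscle-like cells called 0 of 73 (against 0%), with 8 unadjusted (against 4.68%) and 0 by DESeq2. Their edgeR count moved without control library 1. Pericyte-like cells called 0 of 94 (against 0.0448%), with 6 unadjusted (against 6.18%) and 0 by DESeq2. Slc6a20a in pericyte-like cells gave 0.13 ± 0.20 and Slc19a1 0.21 ± 0.21.

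**Figure D5:**
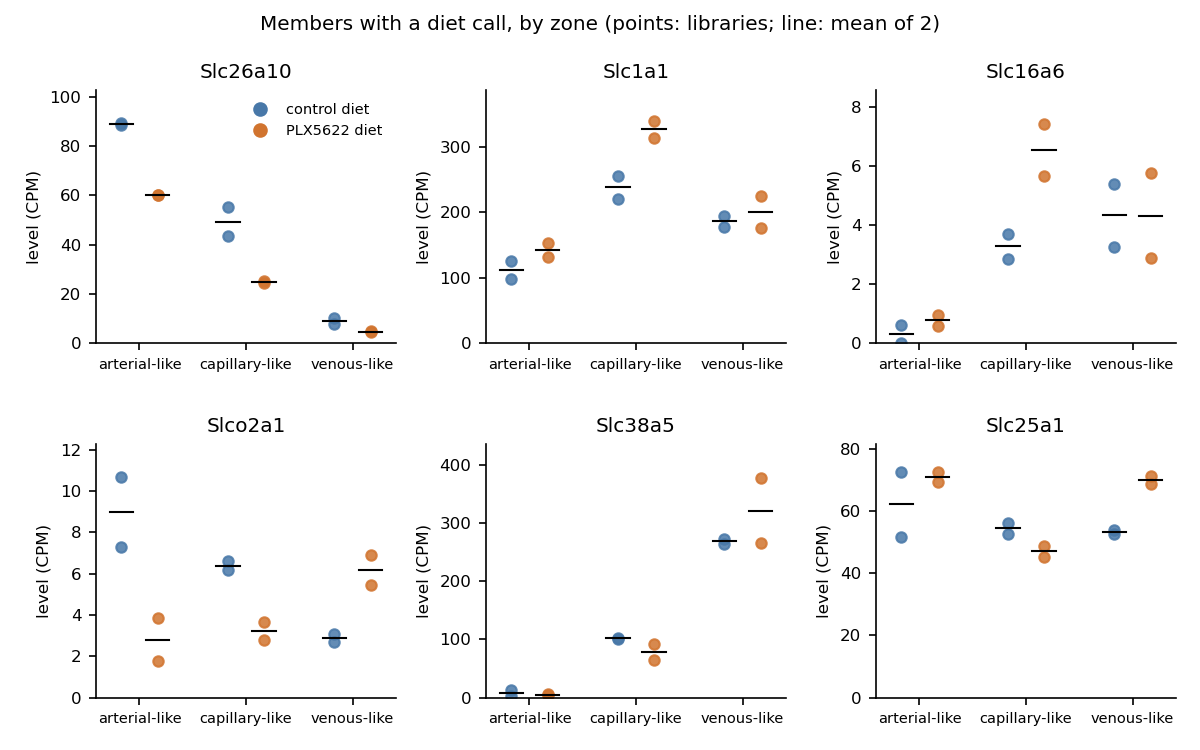
Level (CPM, axes from 0) of the 6 members called in a diet comparison, in arterial-like, capillary-like and venous-like cells, with 1 point per library and a line at the mean of the 2 libraries of a diet. Slc26a10 is lower under PLX5622 in each zone, and Slco2a1 and Slc25a1 have opposite orders of the diets in capillary-like and venous-like cells.

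Whether the diet difference itself differed between zones was tested with an interaction term, with the library as a block. Between venous-like and capillary-like cells 4 members of 174 passed (against 0.439% of all genes), with 13 at an unadjusted p under 0.05 (against 6.81%). Between arterial-like and capillary-like cells 0 of 174 passed by edgeR (against 0.158%), with 8 unadjusted (against 5.11%) and 0 by DESeq2. The edgeR count moved without control library 2. DESeq2 called 0 of the venous differences and gave no adjusted p for Slco2a1. Its share of all genes called is not given here, so that 0 is not set against a background. Of the 4 edgeR calls, only that of Slc38a5 stayed without control library 2 or without PLX5622 library 2. Without PLX5622 library 1 those of Slc38a5 and Slc1a1 stayed.

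The makeup of the venous-like cells also moved with diet. A cluster led by Ackr1, the chemokine-binding receptor of venules, was 3.52%, 3.1%, 10.4% and 9.54% of venous-like cells (5, 15, 23 and 29 cells), and venous markers summed to 1469, 1530, 2688 and 2633 CPM in venous-like cells. Slco2a1, with 402 UMIs over all kept cells, rests on few UMIs in each venous-like cluster. It was at 34.3, 45.3, 50.2 and 31.7 CPM in the Ackr1-led cluster and at 1.61, 1.18, 1.92 and 2.16 CPM in the other venous-like cluster. Slc38a5 was at 582.4, 521.4, 753.3 and 608.4 CPM in the Ackr1-led cluster and at 258.2, 255.5, 334.2 and 223.5 CPM in the other. Without the Ackr1-led cluster, a setting chosen after the values were seen, 1 of the 4 differences passed, Slc38a5 at 0.49 ± 0.10 (adjusted p = 0.0158). Slc1a1 (−0.35, adjusted p = 0.113), Slc25a1 (0.62, 0.0820) and Slco2a1 (1.66, 0.789) did not pass. Without the Angpt2-led capillary-like cluster Slc38a5 likewise passed (0.69, adjusted p = 5.10e-06), and Slc1a1 (−0.32, 0.152), Slc25a1 (0.56, 0.0988) and Slco2a1 (1.79, 0.171) did not.

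Slc38a5 (chrX:8271133-8280179, plus strand, GRCm38) was at 100.9, 102.6, 92.9 and 64.0 CPM in capillary-like cells (−0.34 ± 0.14, adjusted p = 0.409) and at 272.8, 264.5, 377.3 and 266.2 CPM in venous-like cells (0.27 ± 0.12, adjusted p = 0.427). The diets did not overlap in capillary-like cells, and in venous-like cells PLX5622 library 1 stood above the rest. The difference between the zones was 0.65 ± 0.10 (adjusted p = 3.53e-05). Slc1a1 rose in capillary-like cells and was at 178, 193.6, 224.6 and 175.3 CPM in venous-like cells (0.10 ± 0.12, adjusted p = 0.878), a difference of −0.45 ± 0.09 (adjusted p = 0.00492), which did not pass without control library 2 (−0.23) or without PLX5622 library 2 (−0.30).

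Slc25a1, the mitochondrial citrate carrier (chr16:17925223-17928219, minus strand), was at 56.4, 52.8, 45.3 and 48.8 CPM in capillary-like cells (−0.16, adjusted p = 0.642) and at 53.9, 52.6, 68.9 and 71.3 CPM in venous-like cells (0.43 ± 0.15, adjusted p = 0.208). The diets did not overlap in either zone and lay in opposite orders, and the difference was 0.60 ± 0.15 (adjusted p = 0.0361). It did not pass without control library 2 (0.62), PLX5622 library 1 (0.57) or PLX5622 library 2 (0.64). Slco2a1 (chr9:102988712-103096002, plus strand) was at 3.08, 2.67, 6.89 and 5.44 CPM in venous-like cells (1.12 ± 0.51, adjusted p = 0.449), the opposite order to capillary-like cells, a difference of 2.09 ± 0.53 (adjusted p = 0.0424). It did not pass without control library 2 (2.00), PLX5622 library 1 (2.12) or PLX5622 library 2 (2.08). In endothelial-like cells venous markers summed to 452.1, 502.1, 596.8 and 714.1 CPM and interferon response genes to 634.5, 672.5, 808.5 and 972.3 CPM. Both were higher in both PLX5622 libraries, and their part in these results was not tested.

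Transporters of the same superfamily under other names, and partner proteins, were tested beside the members. Of 22 such genes 21 had enough counts, and 0 passed by edgeR in endothelial-like cells (against 1.45% of all genes). At an unadjusted p under 0.05 there were 3, against 10.6% of all genes, so the count was near that share. These were the pyrophosphate exporter Ank (0.32), the mitochondrial carrier Sfxn3 (−0.33) and the sphingosine-1-phosphate exporter Spns2 (0.31). DESeq2 called 0 of them, with 3 at an unadjusted p under 0.05. Mfsd2a, the lysophospholipid transporter of the barrier, was at 328.7, 308.8, 377.3 and 290.5 CPM, and Bsg, the chaperone of monocarboxylate transporters, at 10010, 11060, 10620 and 11990 CPM. In both the diets overlapped.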

How the data were processed

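Brain cells sorted for CD31 were profiled with 10x Genomics 3′ v3.1 libraries, 2 per diet, per the labels. Per the file headers, which name Cell Ranger 4, each deposited matrix gives whole-number UMI counts of every gene in every barcode. The submitters' processing notes name Cell Ranger 6.0.1, Seurat 4.0 and the builds mm10 and mm39, with no role. The build and gene models behind the deposited counts were not stated in these sources. All 189 members were found in GENCODE M21 (GRCm38), used for positions only.

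Cells with at least 1000 UMIs, 500 genes and at most 10% mitochondrial UMIs were kept. The 4 libraries held 11186648, 38600208, 19044018 and 26949278 UMIs. No doublet caller was run, so droplets with more than 1 cell remain. All cells were clustered (Python 3.11.15, scikit-learn 1.9.0, igraph 0.11.9) on 2000 variable genes without Slc genes, with 30 principal components, 15 neighbours and resolution 0.5, and endothelial-like cells again with 20 components and resolution 0.8. Clusters were named from marker genes.

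UMIs were summed per library and class and tested with edgeR 4.0.16 (quasi-likelihood, TMM, filterByExpr, R 4.3.3) with Benjamini-Hochberg adjustment over all genes tested, 2-sided at 0.05, after a check on simulated data. Errors of fold changes are SE. Zone and mural ratios are log2 with 1 CPM added, as mean ± SD of 4 libraries. Alternatives were normalization, count filter, DESeq2 1.42.0, a replicate block, left-out libraries, cell limits, zone makeup and free RNA.

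The members, the lists and the tests were chosen with earlier results of these data known. Genes were named by rule: members passing in a diet test, the 6 of smallest p in endothelial-like cells, the 4 highest of each substrate class, up to 8 per zone or mural class by ratio, the 3 on either side of the 200 UMI minimum, and 16 fixed carriers of the barrier and of pericytes. Substrate classes follow gene families. The values of 3 genes are not reported here.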

Additional observations from a re-analysis of the deposited data

Results flagged for a closer look

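The diet difference of 4 members differed between venous-like and capillary-like cells by the interaction term in edgeR (Benjamini-Hochberg adjustment over all genes). On the log2 scale, the PLX5622 difference in venous-like minus that in capillary-like cells was 0.65 for the glutamine transporter Slc38a5, −0.45 for the glutamate transporter Slc1a1, 0.60 for the citrate carrier Slc25a1 and 2.09 for the prostaglandin transporter Slco2a1. None of the 4 passed in venous-like cells alone, Slc1a1 and Slco2a1 passed in capillary-like cells alone, and DESeq2 called 0 of the 4 differences. The Ackr1-led cluster was 3.52% and 3.1% of venous-like cells in the control libraries and 10.4% and 9.54% in the PLX5622 libraries. Slc38a5 and Slco2a1 were higher in that cluster than in the other venous-like cluster in each library. It held 5, 15, 23 and 29 cells, and Slco2a1 had 402 UMIs over all kept cells. The Slco2a1 levels there thus rest on few UMIs. Without the Ackr1-led cluster, 1 of the 4 passed, Slc38a5 at 0.49.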

How the results depend on the processing

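In each case the cause was not tested unless the setting itself leaves fewer cells or libraries. Of the counts of members called, 139 recomputed values stayed within 1.5 times and 35 moved. For single members 476 kept direction and call, 53 lost the call, 14 gained one and 17 changed sign. In endothelial-like cells the 3 calls became 7 with no filter on low counts, 1 without the Angpt2-led cluster (chosen after seeing the data) and 3 to 10 with a library left out. In capillary-like cells the 4 calls became 2 by DESeq2. With zone makeup changed, in ways chosen after seeing the data, they became 0 with equal weight to clusters, 1 without the Angpt2-led cluster, 2 on the arterial side and 1 on the venous side. With a library left out the count of calls moved in each endothelial class and in smooth muscle-like cells, and not in pericyte-like cells. Shares of all genes at these settings are not given here. Counts for the diet difference between zones also moved with a library left out. The 4 venous minus capillary calls became 0 by DESeq2 and 2 at no more than 5% mitochondrial UMIs. They became 1 without the Ackr1-led venous-like cluster and 1 without the Angpt2-led cluster (both chosen after seeing the data). A diet left with 1 library was assumed to vary like the other. With a library left out, members higher in capillary-like cells were 1 to 2, lower in venous-like cells 1 to 2 and lower in pericyte-like cells 1 to 3. Shares of all genes for these counts are not given here either. With little endothelial RNA, pericyte-like cells had 21 higher and 27 lower.

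Replicate numbers did not pair the libraries (correlation of the differences 0.0608 over 12803 genes). The replicate block gave 1 call in arterial-like cells, Slc26a10 at −0.55, and Slc16a6 lost its call in endothelial-like cells (1.01) as did Slco2a1 in capillary-like cells (−0.98). Slc26a10 did not pass within the venous-side capillary-like cells alone (−0.31 ± 0.27) or with each capillary-like cluster given equal weight. It passed within the arterial side alone (−0.56 ± 0.13). In endothelial-like cells it kept its call under each alternative run. Slc1a1 lost its call there without PLX5622 library 1 (0.38), with equal weight to the zones (0.36) and without the Angpt2-led cluster (0.35). Slc16a6 lost its call under 9 settings, with values from 0.43 to 1.01.

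Signs changed only for members that had not passed. With a library left out, log2 fold changes in endothelial-like cells ranged from −0.178 to 0.0316 for Slco1a4, −0.389 to 0.059 for Slc38a5, −0.045 to 0.0218 for Slc22a8, −0.191 to 0.2105 for Slc7a1, −0.212 to 0.0875 for Slc39a10 and −0.617 to 1.55 for Slc6a20a. Values past 0 came without PLX5622 library 2 (Slco1a4, Slc38a5, Slc39a10, and Slc6a20a at 0.0195), PLX5622 library 1 (Slc22a8 and Slc7a1), control library 1 (Slc22a8 at 0.0097) or control library 2 (Slc6a20a). With equal weight to the zones Slc16a1 gave −0.0014, Slc38a5 0.131 and Slc7a1 −0.0392, and Slc7a1 gave −0.024 without normalization factors and −0.0019 without the Angpt2-led cluster. The venous minus capillary difference of Slc26a10 (0.11, not passing) was −0.19 without the Angpt2-led cluster. Elsewhere the ranges were −0.0475 (without control library 1) to 0.508 for Slc25a1 in arterial-like cells, and in venous-like cells −0.0786 (without PLX5622 library 1) to 0.295 for Slc1a1 and −0.159 (without control library 2) to 0.6005 for Slc16a6. Depth limits the mural classes, where 73 and 94 members had enough counts.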

Other observations

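Outside the endothelial and mural cells, the sort held 14, 47, 13 and 22 astrocyte-like cells in the order of the libraries. The glutamate transporters Slc1a2 and Slc1a3 were at 8799, 4730, 2732 and 6659 CPM and at 2950, 1721, 1156 and 2494 CPM there, against 1.31 and 2.01 CPM in endothelial-like cells. The GABA transporter Slc6a11 (625 against 0.0743 CPM) and the sodium-bicarbonate cotransporter Slc4a4 (1059 against 0.656 CPM) showed the same order. These levels rest on few cells. Slc7a10, and also Slc1a2, Slc1a3, Slc6a11 and Slc4a4, met the minimum of 200 UMIs mainly through these cells. In erythroid-like droplets the mitochondrial iron importer Slc25a37 was at 113, 111, 166 and 139.5 CPM, against 10.4 CPM in endothelial-like cells.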
